A study of Mus musculus with 9 samples.

Results

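Matrix metalloproteinases (Mmp genes), the ADAMTS proteases, the ADAMTS-like proteins and the tissue inhibitors of metalloproteinases (Timp genes) were followed across the nuclei of the mouse heart. A member was any gene whose symbol is Mmp, Timp, Adamts or Adamtsl followed by a number and an optional letter, with at least 50 UMIs (unique molecular identifiers, each 1 counted RNA molecule) summed over 9 libraries. This gave 45 members, of 50 symbols that fit the pattern and 32285 genes in all. They were 17 Mmp, 4 Timp, 19 Adamts and 5 Adamtsl genes. Just inside the limit lay Adamts13 with 51 UMIs and Adamts16 with 60. Just outside lay Mmp20 with 32 and Mmp21 with 29, and Mmp1b, Mmp10 and Mmp7 had 11, 7 and 2. The rule itself used no difference between groups, but it was chosen with earlier results of these data known.

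Nuclear RNA was sequenced from hearts of male wild-type mice aged 9 to 10 weeks, in 3 groups with 3 libraries each. In the NS-Sham group the chest was opened without closing an artery, and the mice received normal saline (NS). In the NS-I/R group the left anterior descending artery was closed for 45 min (ischemia) and then reopened for 24 h (reperfusion), again with saline. The Enpa-I/R group had the same ischemia and reperfusion but received enpatoran, an antagonist of the RNA sensor TLR7, in 2 intraperitoneal doses of 5 mg/kg. The first dose came 1 h before ischemia, and the labels place the second either 2 h after it or directly after ischemia. A sham group given enpatoran was not analysed here. The labels number the libraries of a group as replicates and do not say that each is a separate animal, so the p-values measure only the spread between these libraries.

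Matrix metalloproteinases are zinc enzymes, made as inactive precursors, that cut collagens, gelatins, laminins and proteoglycans; most are secreted and some are held in the cell membrane. ADAMTS enzymes are secreted relatives that trim procollagens, cleave versican and aggrecan or process fibrillin fibres, and ADAMTS-like proteins share their other domains but lack the catalytic one. TIMPs block the active site of the metalloproteinases, and in the heart the balance of both is known for its part in scar formation and in the loss of matrix after infarction.

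Each library held 4079 to 8198 barcodes and 19651794 to 38970153 UMIs, and 41979 nuclei of 56766 barcodes passed the filters, 3160 to 6471 per library. Clustering without the members gave 27 clusters, of which 26 were named by marker genes. A class was tested where each library held 25 or more of its nuclei: fibroblast-like, endothelial-like, lymphatic endothelial-like, endocardial-like, pericyte-like, smooth muscle-like, cardiomyocyte-like and macrophage-like nuclei. All markers of each class were detected in it in every group, except that the lymphatic marker Ccl21a was at 0 in both I/R groups. Neutrophil-like nuclei numbered 6 in NS-Sham, against 1339 for NS-I/R and 327 for Enpa-I/R, and were compared between the I/R groups only. Within several classes the leading cluster differed between groups: cluster 10 held 82.8% of fibroblast-like nuclei in NS-Sham, against 16.3% for NS-I/R and 43.0% for Enpa-I/R, and cluster 12, led by Tnc and Adam12, held 44.6% for NS-I/R and 33.1% for Enpa-I/R. The 7 neutrophil markers, summed, also moved with the groups outside neutrophil-like nuclei. In macrophage-like nuclei they reached 66.3 to 81.8 CPM (counts scaled to a common total of 1e6) in NS-Sham, against 407 to 1007 for NS-I/R and 233 to 274 for Enpa-I/R, against 5111 to 7231 in neutrophil-like nuclei of NS-I/R. In B cell-like nuclei, a class that should lack them, they went from 0 in NS-Sham up to 493 to 1820.4 with NS-I/R.

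Counts were summed per library and class. Values below are CPM per library, scaled by TMM (a library size correction), given in the order of replicates 1, 2 and 3. Differences are log2 fold changes with their standard error (SE) from edgeR's quasi-likelihood test, fitted over all genes, and a call means a Benjamini-Hochberg adjusted p under 0.05.

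Members were spread over all the main cell classes. By the class with the highest CPM among 9 (the 8 tested ones and neutrophil-like nuclei), averaged over groups, fibroblast-like nuclei led with 15 members, among them Adamts2, Adamts5, Adamts6, Mmp2, Mmp3 and Timp1. Smooth muscle-like nuclei led for 6 members, neutrophil-like nuclei for 5, and endothelial-like and lymphatic endothelial-like nuclei for 4 each. The neutrophil-like averages, in this count and below, include a sham mean from only 6 nuclei. Cardiomyocyte-like, macrophage-like and pericyte-like nuclei each led for 3, and endocardial-like nuclei for 2. Of the inhibitors, and among these 9 classes, Timp1 was highest in fibroblast-like nuclei, Timp2 and Timp3 in lymphatic endothelial-like nuclei, and Timp4 in endothelial-like nuclei. Some members were far higher in 1 class than in the next: Mmp2 averaged 173 CPM in fibroblast-like nuclei and 15.1 in pericyte-like nuclei, its next class, and Mmp9 averaged 405 CPM in neutrophil-like and 17.1 in macrophage-like nuclei. Of the UMIs of each in nuclei kept, 87.3% of Mmp2 lay in fibroblast-like and 57.5% of Mmp9 in neutrophil-like nuclei. Others were shared, as Adamts10 with 316 CPM in fibroblast-like and 245 in endocardial-like nuclei. No test was made of these levels, which describe where each gene was read.

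**Figure D1:**
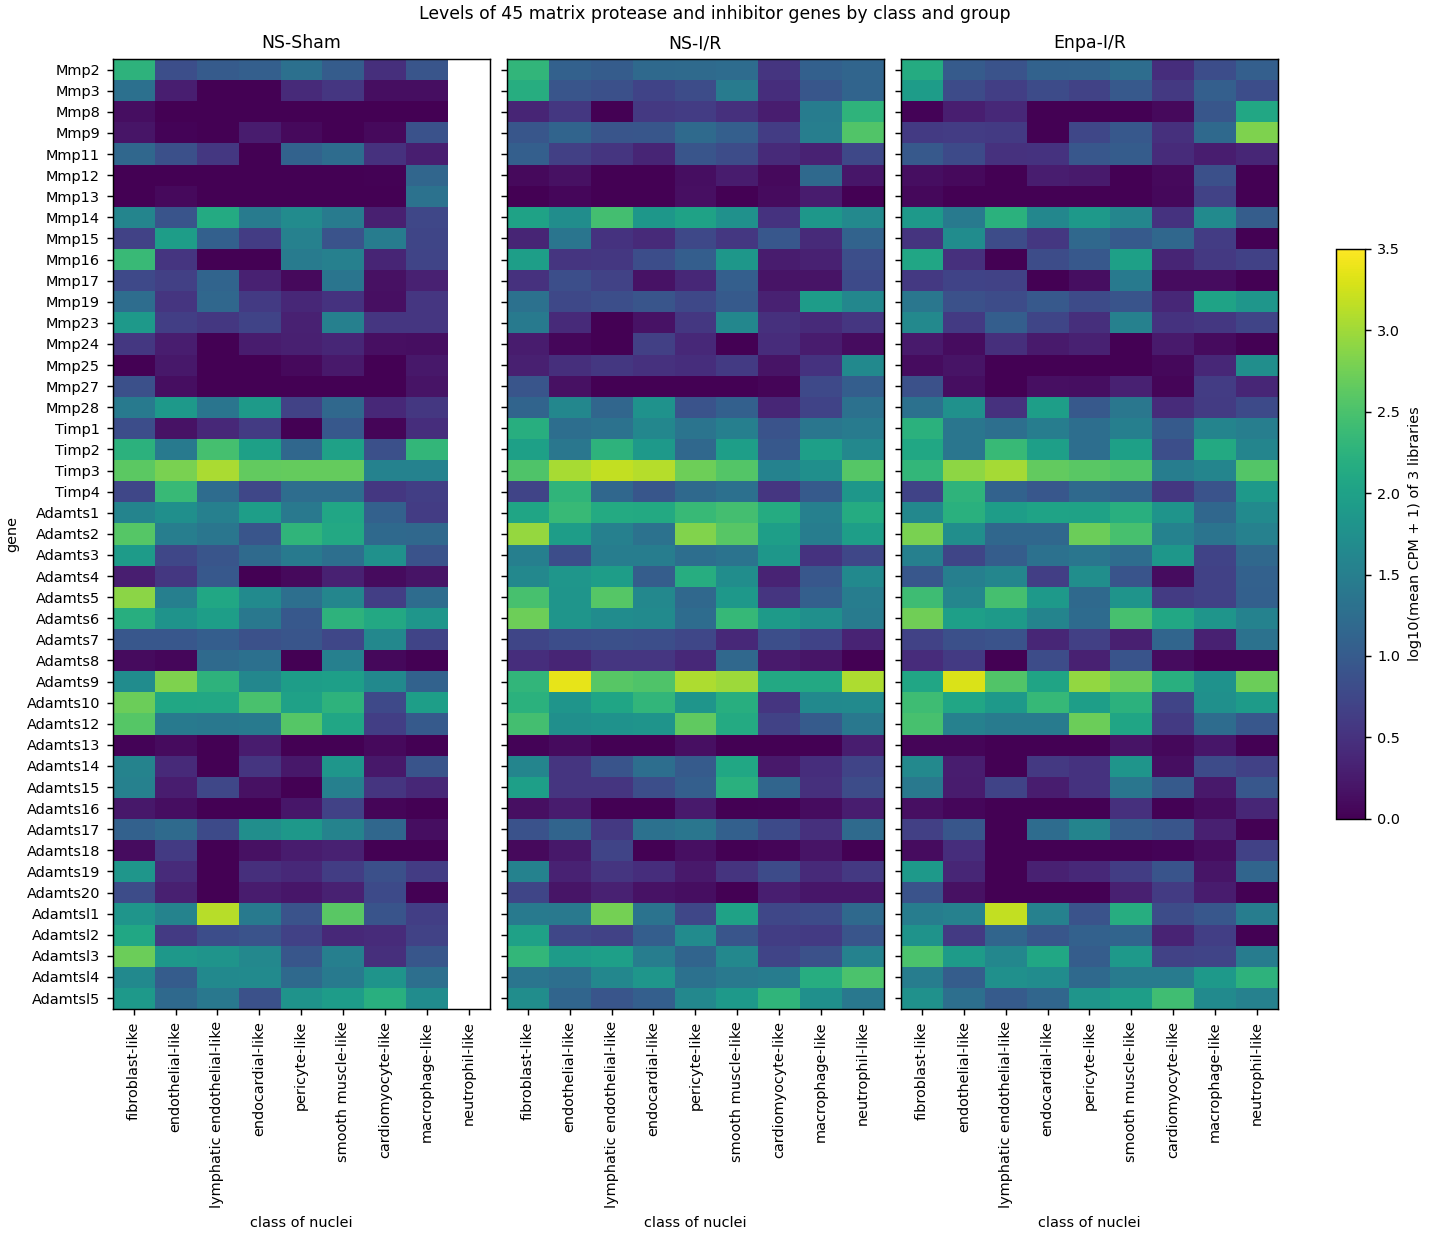
Mean level of each of the 45 members (rows) in 9 classes of nuclei (columns) for each of the 3 groups, as log10 of mean CPM plus 1 over 3 libraries. Adamts9, Timp3 and Adamtsl1 were among the brightest rows, and the neutrophil-like column is blank in NS-Sham, where the class had 6 nuclei.

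Setting NS-I/R against NS-Sham asks what ischemia and reperfusion did to these genes. In fibroblast-like nuclei, members moved in both directions: the inhibitor Timp1 and the proteases Mmp3, Adamts4, Adamts6 and Adamts2 rose, while Adamts5, Adamts10, Adamtsl3, Mmp16 and Mmp23 fell. In endothelial-like nuclei 12 of 15 called members rose, Adamts9, Adamts1 and Mmp14 among them. In macrophage-like nuclei 11 of 13 called members rose, Mmp19 and Mmp14 among them, but 5 of the 11 had no more UMIs per nucleus than B cell-like nuclei and 8 were within 2-fold of them. A member near 0 in sham can pass the count filter through I/R libraries alone and can then only be called higher. Sham held 0 UMIs of Mmp8 and 1 of Adamts4 in macrophage-like nuclei, and 3 of Timp1 and 1 of Mmp9 in endothelial-like nuclei. The counts of rises, here and below, include such members. Of 39 members tested in at least 1 of 8 classes, 32 were called in at least 1, with 14 only higher, 13 only lower and 5 higher in some classes and lower in others. Of all 15858 genes tested in any of these classes, 69.5% were called in at least 1, 30.4% only higher and 33.7% only lower. Adamts8, Adamts13, Adamts16, Adamts18, Mmp13 and Mmp25 passed the count filter in none of the 8 classes.

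Fibroblast-like nuclei had 24 of 36 tested members called, 10 higher and 14 lower, beside 46.7% of all genes tested (23.4% higher, 23.3% lower). The members' median log2 fold change was -0.34, against -0.01 for all genes. Endothelial-like nuclei had 15 of 29 called, 12 of them higher, beside 35.6% of all genes tested (18.3% higher, 17.4% lower), and a median of 0.61. Macrophage-like nuclei had 13 of 18 called, 11 of them higher, beside 34.9% of all genes tested (18% higher, 16.9% lower), and a median of 1.62. Cardiomyocyte-like nuclei had 18 of 33 called, 11 higher, beside 45.3% of all genes tested (23.7% higher, 21.7% lower). Pericyte-like nuclei had 11 of 22 called, 7 higher, beside 24.1% of all genes tested (12.2% higher, 11.9% lower). Of the smaller classes, endocardial-like nuclei had 6 of 16 called, 5 higher, beside 10.4% of all genes tested (5.15% higher, 5.21% lower). Lymphatic endothelial-like nuclei had 5 of 13, 4 higher, beside 13.6% of all genes tested (6.08% higher, 7.52% lower), and smooth muscle-like nuclei 5 of 19, 4 higher, beside 6.99% of all genes tested (3.08% higher, 3.91% lower). Summed over all nuclei, 28 of 43 members were called, 16 higher, beside 47.8% of all genes tested (23.9% higher, 23.9% lower); in such a sum, fewer nuclei of a class and less RNA per nucleus cannot be told apart.

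**Figure D2:**
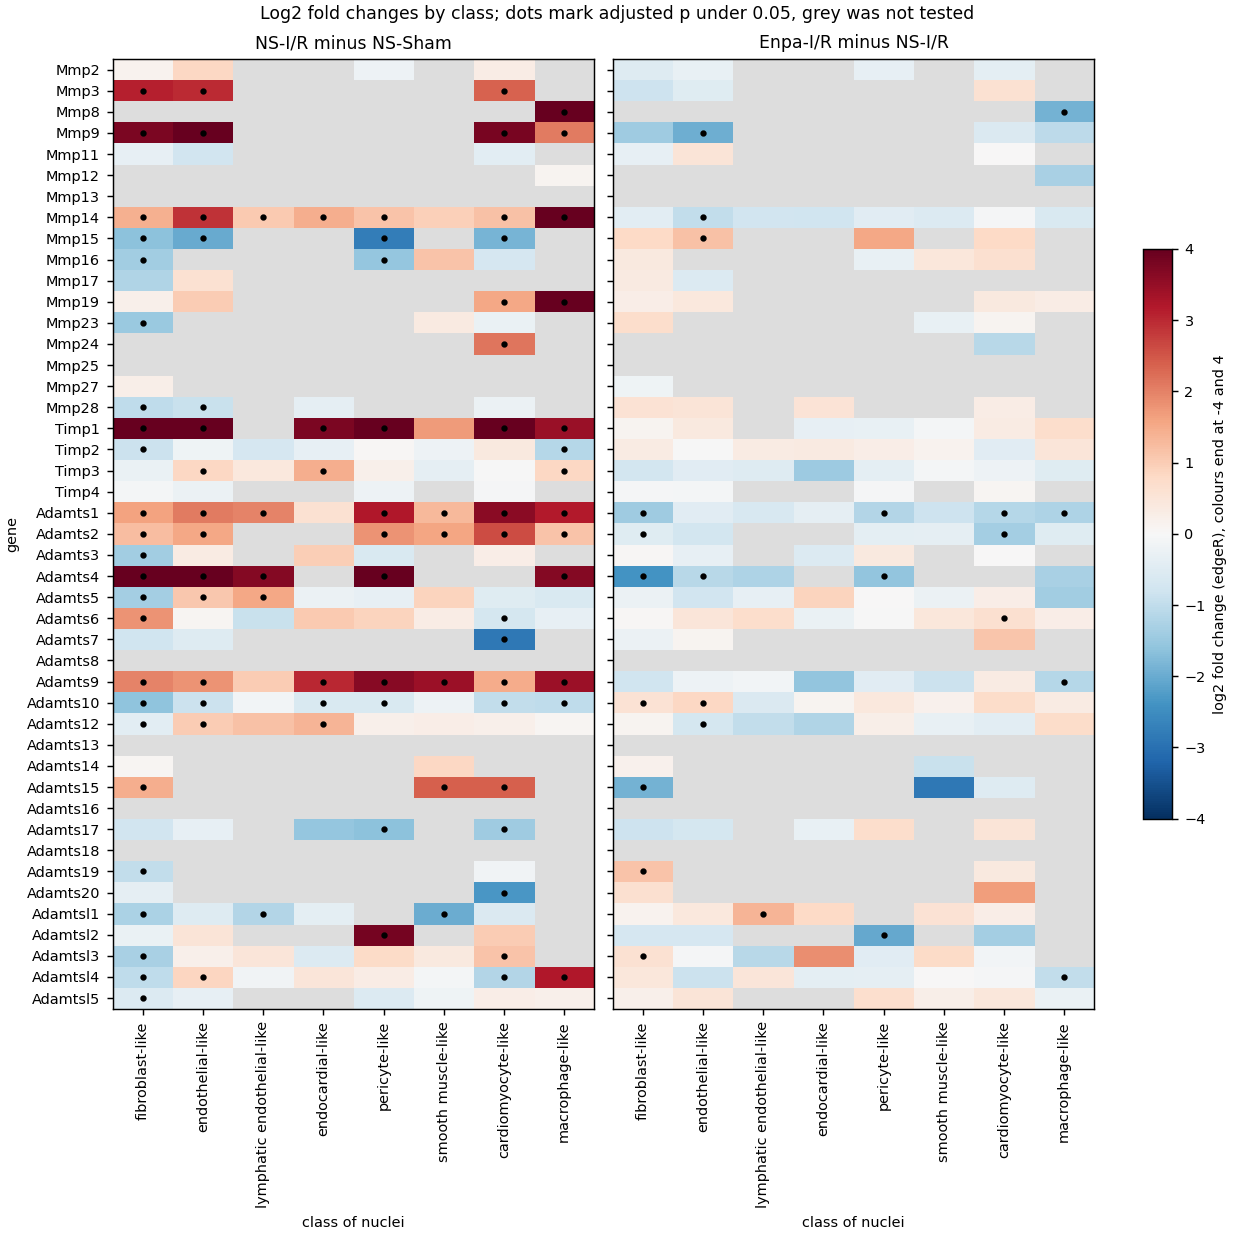
Log2 fold changes of the members (rows) in 8 classes (columns) for NS-I/R against NS-Sham (left) and Enpa-I/R against NS-I/R (right), with dots where the adjusted p is under 0.05 and grey where the gene was not tested. On the left, Timp1, Adamts1, Adamts9 and Mmp14 carry dots in 6 to 7 classes, all higher; on the right there are fewer dots, at most 4 in a row.

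Among the inhibitors, Timp1, a secreted inhibitor that also acts as a growth factor, rose in 6 of 7 classes tested. In fibroblast-like nuclei it was at 2.47, 7.17 and 7.20 CPM in NS-Sham, against 129.9, 112 and 226 for NS-I/R and 226, 147 and 132 for Enpa-I/R. All libraries of both I/R groups lay far above the sham libraries (log2 fold change 4.73 ± 0.39 SE, adjusted p = 3.60e-06). After thinning each nucleus to 1000 UMIs, the share of fibroblast-like nuclei with a Timp1 UMI was 0.339% ± 0.169 in NS-Sham, against 10.5% ± 4.53 for NS-I/R and 9.76% ± 1.91 for Enpa-I/R (mean ± SD, n = 3 libraries). Timp1 also rose in endothelial-like nuclei, from 3 UMIs to 121 (ratio 47.9, 95% interval 16.0 to 236), and in pericyte-like nuclei, where sham had 0 UMIs (at least 23.1-fold higher, with 3 UMIs over the sham group as the floor). In cardiomyocyte-like nuclei it reached 6.86, 5.09 and 8.49 CPM in NS-I/R. Per nucleus of NS-I/R, Timp1 had 0.0351 UMIs in endothelial-like, 0.0550 in pericyte-like and 0.0580 in macrophage-like nuclei. B cell-like nuclei of that group had 0.0333, from 3 UMIs. Cardiomyocyte-like, endocardial-like and fibroblast-like nuclei had 0.0722, 0.129 and 0.636. The part of free RNA in these rises was not tested.

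Timp3, an inhibitor bound to the matrix that also blocks ADAMTS enzymes, stood at 1001, 1322 and 1039.6 CPM in NS-Sham, against 1873, 1846 and 795 for NS-I/R and 988, 1069 and 1110.3 for Enpa-I/R in lymphatic endothelial-like nuclei, where it was not called (adjusted p = 0.296). In endocardial-like nuclei, at 542, 481 and 349.9 CPM in NS-Sham, against 2023, 1302 and 507 for NS-I/R and 501, 479 and 404 for Enpa-I/R, it was called higher (log2 fold change 1.47 ± 0.33 SE, adjusted p = 0.00842), although NS-I/R replicate 3 lay among the sham libraries; the call was lost without NS-I/R replicate 1 (adjusted p = 0.0562). NS-I/R replicate 3 was the lowest of its group in lymphatic endothelial-like, endocardial-like and endothelial-like nuclei alike. The endothelial-like call (log2 fold change 0.83 ± 0.30 SE, adjusted p = 0.0438) was made in the full fit and kept in 2 of 9 fits that left out 1 library (adjusted p 5.38e-05 to 0.255). Timp2, which also helps to activate pro-MMP2, fell in fibroblast-like nuclei, from 173, 174 and 175 to 105, 75.7 and 105 CPM, with no overlap (log2 fold change -0.87 ± 0.13 SE, adjusted p = 2.38e-04). It fell as well in macrophage-like nuclei, from 249.6, 194 and 177 to 101, 83.5 and 99.1 CPM (log2 fold change -1.13 ± 0.17 SE, adjusted p = 1.05e-04). Timp4, the inhibitor best known from heart muscle, was at 207, 269 and 209 CPM in NS-Sham and 217, 203 and 168 for NS-I/R in endothelial-like nuclei, with overlapping groups and no call (adjusted p = 0.217).

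The stromelysin Mmp3, which cuts many matrix proteins and activates other pro-MMPs, rose in fibroblast-like nuclei. It was at 29.6, 5.57 and 21.1 CPM in NS-Sham, against 162, 189 and 96.6 for NS-I/R and 79.0, 92.8 and 82.4 for Enpa-I/R. Every I/R library exceeded every sham library (log2 fold change 3.12 ± 0.43 SE, adjusted p = 1.18e-04). Mmp2, the gelatinase made by resting fibroblasts, did not pass the test in that class: 186, 168 and 184 CPM in NS-Sham and 232, 222 and 142 for NS-I/R overlapped (adjusted p = 0.474). Mmp11 and Mmp27 were not called either, at log2 fold changes of -0.32 and 0.22.

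The promoters of 4 members are shown because Timp1 and Mmp3 rose in the same nuclei and Adamts1 rose in 7 of 8 classes. Mmp13 was added because it lies near Mmp3 on chromosome 9, with Mmp12 between them. Each is the 250 bases before the annotated start in RefSeq's table for GRCm38.p6, 5′ to 3′ on the gene's strand. Capitals mark AP-1 (TGANTCA) and TATA box (TATAAA) matches on either strand. The positions are chrX:20869916-20870165, plus strand for Timp1, chr9:7445572-7445821, plus strand for Mmp3, chr9:7272264-7272513, plus strand for Mmp13 and chr16:85803114-85803363, minus strand for Adamts1.
Timp1: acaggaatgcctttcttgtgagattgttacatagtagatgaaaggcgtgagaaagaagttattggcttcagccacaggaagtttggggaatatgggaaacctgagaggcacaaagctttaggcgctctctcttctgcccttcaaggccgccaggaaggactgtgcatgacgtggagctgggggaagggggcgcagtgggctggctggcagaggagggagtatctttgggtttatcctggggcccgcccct
Mmp3: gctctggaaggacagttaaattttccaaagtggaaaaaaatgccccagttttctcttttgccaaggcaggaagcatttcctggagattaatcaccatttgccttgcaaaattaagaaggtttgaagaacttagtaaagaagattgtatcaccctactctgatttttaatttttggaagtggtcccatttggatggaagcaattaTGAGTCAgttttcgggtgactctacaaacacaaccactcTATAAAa
Mmp13: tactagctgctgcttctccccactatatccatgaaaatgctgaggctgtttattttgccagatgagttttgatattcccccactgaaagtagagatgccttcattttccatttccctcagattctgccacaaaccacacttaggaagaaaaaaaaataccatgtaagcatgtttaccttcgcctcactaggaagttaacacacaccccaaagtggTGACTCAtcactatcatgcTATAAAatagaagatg
Adamts1: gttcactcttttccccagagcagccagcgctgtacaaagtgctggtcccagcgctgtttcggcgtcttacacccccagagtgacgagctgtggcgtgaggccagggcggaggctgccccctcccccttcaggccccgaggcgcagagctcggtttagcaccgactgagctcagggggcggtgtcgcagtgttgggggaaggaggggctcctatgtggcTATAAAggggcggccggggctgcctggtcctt
Of the 45 members, 30 had an entry in that table. The AP-1 letters occurred in 3 of them, Mmp3, Mmp12 and Mmp13, and in 6.75% of all 32851 promoters of that length. In Mmp3 the match began 46 bases before the start, in Mmp13 35 and in an entry of Mmp12 44. The TATA box letters occurred in Mmp3, Mmp13, Adamts1 and Adamtsl2, 4 of 30, and in 12.4% of all promoters. The letters TGACGTCA (a cyclic AMP response element) occurred in none of the 30 and in 1.55% of all promoters, and the NF-kB consensus in 1, Mmp25, and in 3.90% of all. These counts describe letters in a window and say nothing of binding.

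Of the leukocyte proteases, Mmp9 (a gelatinase), Mmp8 (the neutrophil collagenase) and Mmp25 (a membrane-anchored neutrophil enzyme) were highest in neutrophil-like nuclei. In those nuclei Mmp9 stood at 356, 348 and 361 CPM in NS-I/R and Mmp8 at 214, 231 and 122. Both were also called higher outside that class. Mmp8 in macrophage-like nuclei had 0 UMIs in NS-Sham and 15.5, 32.3 and 38.9 CPM with I/R and saline, at least 20.3-fold higher with 3 UMIs over the sham group as the floor. Mmp9 in endothelial-like nuclei went from 1 UMI to 88 (ratio 105, 95% interval 18.3 to 4175). Neutrophil markers moved in the same classes, as given above, and Mmp9 had 0.156 UMIs per nucleus in B cell-like nuclei of NS-I/R, above its 0.026 in endothelial-like, 0.032 in fibroblast-like, 0.034 in cardiomyocyte-like and 0.077 in macrophage-like nuclei. The B cell-like level of Mmp9 rests on 14 UMIs, in nuclei where neutrophil markers moved too, as given above. Its calls in those 4 classes are not read as expression there, and the part of free RNA in them was not tested. Mmp8 had 0.073 UMIs per nucleus in macrophage-like and 0.056 in B cell-like nuclei; the part of the neutrophil signal in its rise was not tested.

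Mmp19, a secreted MMP of macrophages, was at 4.96, 0 and 2.65 CPM in NS-Sham, against 68.8, 90.1 and 96.8 for NS-I/R and 91.8, 75.2 and 153 for Enpa-I/R in macrophage-like nuclei. Sham libraries were near 0 and did not overlap with either I/R group (log2 fold change 5.31 ± 0.55 SE, adjusted p = 3.80e-06). The thinned share of macrophage-like nuclei with a Mmp19 UMI was 0.156% ± 0.270 in NS-Sham, 6.52% ± 1.63 with NS-I/R and 7.66% ± 1.08 with Enpa-I/R (mean ± SD, n = 3). Mmp12, the macrophage elastase, was at 23.1, 11.9 and 5.30 CPM in NS-Sham and 2.58, 4.74 and 36.6 for NS-I/R, where replicate 3 alone was high (adjusted p = 0.933). Mmp13, a collagenase, was too low to test; in macrophage-like nuclei it read 3.31, 27.7 and 29.1 CPM in NS-Sham, against 1.72, 0 and 0.762 for NS-I/R and 1.75, 7.76 and 2.26 for Enpa-I/R.

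Membrane-type MMPs moved in both directions. Mmp14, which activates pro-MMP2 at the cell surface and cuts collagen, was called higher in 7 of 8 classes tested, of which the cardiomyocyte-like call was kept in 2 of 9 fits that left out 1 library (adjusted p 0.0269 to 0.150) and was lost with DESeq2's Wald test and with the replicate block. Its levels were 114, 174 and 124 CPM in NS-Sham, against 361, 188 and 315 for NS-I/R and 166, 202 and 142 for Enpa-I/R in lymphatic endothelial-like nuclei, where NS-I/R replicate 2 lay near the highest sham library (log2 fold change 1.03 ± 0.28 SE, adjusted p = 0.0165). That call was lost without NS-Sham replicate 1 (adjusted p = 0.0762), NS-Sham replicate 3 (adjusted p = 0.0741) or NS-I/R replicate 1 (adjusted p = 0.0852). In macrophage-like nuclei it was at 6.61, 1.98 and 5.30 CPM in NS-Sham, against 83.5, 48.4 and 78.5 for NS-I/R and 43.7, 45.0 and 48.6 for Enpa-I/R, with all sham libraries far lower (log2 fold change 4.07 ± 0.39 SE, adjusted p = 1.77e-06). In fibroblast-like nuclei it went from 44.4, 34.8 and 36.5 to 113, 112 and 87.5 CPM (log2 fold change 1.44 ± 0.15 SE, adjusted p = 1.56e-05).

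Mmp15, its close relative, fell in all 4 classes in which it was tested. In endothelial-like nuclei Mmp15 stood at 95.3, 70.8 and 98.9 CPM in NS-Sham, against 15.3, 14.3 and 35.9 for NS-I/R and 44.0, 46.4 and 56.7 for Enpa-I/R. The sham libraries were the highest 3 and the NS-I/R libraries the lowest 3 (log2 fold change -2.01 ± 0.28 SE, adjusted p = 1.24e-04). Mmp16, a further membrane-type enzyme, was at 248, 222 and 232 CPM in NS-Sham, against 72.4, 89.2 and 108 for NS-I/R and 127, 133 and 95.4 for Enpa-I/R in fibroblast-like nuclei. Its sham libraries lay above all I/R libraries (log2 fold change -1.38 ± 0.16 SE, adjusted p = 3.89e-05). Mmp23, a membrane protein released by cleavage, was at 83.9, 68.1 and 74.1 CPM in NS-Sham, against 22.8, 18.8 and 38.1 for NS-I/R and 38.0, 45.2 and 46.8 for Enpa-I/R in the same nuclei, again with sham on top (log2 fold change -1.49 ± 0.22 SE, adjusted p = 2.31e-04). Mmp28 (epilysin) fell in endothelial-like nuclei, from 67.7, 79.8 and 80.8 to 43.5, 30.7 and 48.5 CPM (log2 fold change -0.90 ± 0.18 SE, adjusted p = 0.00197), and in fibroblast-like nuclei (log2 fold change -1.0 (adjusted p = 0.00669)). In endocardial-like nuclei, its highest class, it was not called (adjusted p = 0.443). Mmp24, a membrane-type enzyme best known from neurons, rose in cardiomyocyte-like nuclei at very low levels, from 0.459, 0.362 and 0.369 to 2.79, 1.10 and 1.53 CPM (log2 fold change 2.15 ± 0.49 SE, adjusted p = 0.00531), and the call was kept in all 9 fits that left out 1 library. Mmp17, the lipid-anchored membrane type, was tested in fibroblast-like and endothelial-like nuclei and called in neither (adjusted p = 0.0683 and 0.315).

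Of the proteoglycan-cleaving ADAMTS enzymes, Adamts9, which cleaves versican, rose in 7 of 8 classes, and its home was the endothelium. In endothelial-like nuclei it was at 693, 672 and 617 CPM in NS-Sham, against 2616, 2408 and 1925 for NS-I/R and 1969.5, 1942 and 2078 for Enpa-I/R. All NS-I/R libraries were above all sham libraries (log2 fold change 1.81 ± 0.13 SE, adjusted p = 6.49e-07). The thinned share of these nuclei with an Adamts9 UMI went from 35.0% ± 1.24 to 63.2% ± 2.59 (mean ± SD, n = 3). In pericyte-like nuclei Adamts9 was at 85.1, 123 and 57.1 CPM in NS-Sham, against 1513, 1223 and 737 for NS-I/R and 845, 805 and 893 for Enpa-I/R, a log2 fold change larger than in endothelial-like nuclei (log2 fold change 3.64 ± 0.26 SE, adjusted p = 1.82e-07), though the difference between the classes was not tested. In macrophage-like nuclei its call (log2 fold change 3.43 (adjusted p = 1.11e-05)) rested on 0.330 UMIs per nucleus in NS-I/R, below the 0.544 of B cell-like nuclei.

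Adamts1, an early-response gene of inflammation, also rose in 7 of 8 classes. It was at 99.9, 120.3 and 126 CPM in NS-Sham, against 342, 354 and 155 for NS-I/R and 136, 149 and 204 for Enpa-I/R in smooth muscle-like nuclei, where NS-I/R replicate 3 lay nearer to sham than to the other NS-I/R libraries (log2 fold change 1.29 ± 0.30 SE, adjusted p = 0.0208). That call was lost without NS-Sham replicate 1 (adjusted p = 0.0867), NS-Sham replicate 2 (adjusted p = 0.0551), NS-Sham replicate 3 (adjusted p = 0.0663), NS-I/R replicate 1 (adjusted p = 0.0610) or NS-I/R replicate 2 (adjusted p = 0.104). In cardiomyocyte-like nuclei Adamts1 was at 9.86, 11.2 and 13.2 CPM in NS-Sham, against 172, 129.8 and 118 for NS-I/R and 66.4, 43.6 and 78.6 for Enpa-I/R, well apart from sham (log2 fold change 3.62 ± 0.25 SE, adjusted p = 8.23e-06). Its macrophage-like call rested on 0.0813 UMIs per nucleus in NS-I/R, near the 0.0778 of B cell-like nuclei.

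Adamts4, an aggrecan and versican-cleaving enzyme, was close to absent in sham pericyte-like nuclei. It was at 0, 0.663 and 0 CPM in NS-Sham, against 190.4, 183 and 81.9 for NS-I/R and 44.1, 88.4 and 23.2 for Enpa-I/R. The sham group held 1 UMI and NS-I/R 403 (ratio 473, 95% interval 84.5 to 18743, counting error only). Its share of pericyte-like nuclei with a UMI, after thinning, was 0 in NS-Sham, against 13.2% ± 5.47 for NS-I/R and 3.12% ± 1.65 for Enpa-I/R. In fibroblast-like nuclei Adamts4 was at 1.65, 0.796 and 0.515 CPM in NS-Sham, against 67.9, 46.5 and 12.6 for NS-I/R and 8.10, 6.88 and 9.13 for Enpa-I/R, with NS-I/R replicate 3 well below its group (log2 fold change 5.40 ± 0.69 SE, adjusted p = 7.54e-05). These nuclei had 0.160 Adamts4 UMIs each in NS-I/R, against 0.0889 (from 8 UMIs) in B cell-like nuclei. Adamts15, of the same proteoglycan-cleaving group, was at 32.9, 37.6 and 31.4 CPM in NS-Sham, against 129.6, 109.8 and 41.0 for NS-I/R and 26.8, 27.2 and 20.6 for Enpa-I/R in fibroblast-like nuclei. NS-I/R replicate 3 lay just above the highest sham library (log2 fold change 1.44 ± 0.33 SE, adjusted p = 0.00367). In smooth muscle-like nuclei, at 29.1, 25 and 43.1 CPM in NS-Sham, against 169, 290.5 and 44.7 for NS-I/R and 26.5, 16.5 and 24.7 for Enpa-I/R, it rose too (log2 fold change 2.40 ± 0.54 SE, adjusted p = 0.0168), but the call was lost without NS-Sham replicate 1 (adjusted p = 0.0639), NS-Sham replicate 2 (adjusted p = 0.0600) or NS-I/R replicate 2 (adjusted p = 0.0935).

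Adamts5, the aggrecanase that clears versican in the developing heart, went the other way in fibroblast-like nuclei. It was at 840.0, 734 and 752 CPM in NS-Sham, against 418, 263 and 227 for NS-I/R and 247, 301 and 218 for Enpa-I/R. Sham libraries were all higher than any I/R library (log2 fold change -1.36 ± 0.20 SE, adjusted p = 2.09e-04). In lymphatic endothelial-like nuclei it rose instead, from 83.4, 151 and 132 to 250.0, 487 and 376 CPM (log2 fold change 1.56 ± 0.29 SE, adjusted p = 9.44e-04). Adamts20, a relative of Adamts9, fell in cardiomyocyte-like nuclei at very low levels, 4.24, 1.93 and 9.11 CPM in NS-Sham and 0.857, 0.940 and 1.13 for NS-I/R (log2 fold change -2.33 (adjusted p = 0.00666)). Adamts8 and Adamts18 were too low to test in any class.

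Of the procollagen N-propeptidases, which trim fibrillar collagens before assembly, Adamts2 was called higher in all 6 classes in which it was tested; the macrophage-like call, at 0.0743 UMIs per nucleus against 0.156 in B cell-like nuclei, was kept in 7 of 9 fits that left out 1 library (adjusted p 0.0143 to 0.0848). In fibroblast-like nuclei Adamts2 was at 413, 333 and 377 CPM in NS-Sham, against 946, 985 and 705 for NS-I/R and 601, 646 and 638 for Enpa-I/R. The groups did not overlap, with Enpa-I/R between the other two (log2 fold change 1.23 ± 0.14 SE, adjusted p = 2.66e-05). Adamts3 fell in fibroblast-like nuclei, from 83.5, 70.7 and 95.7 to 31.8, 33.7 and 29.6 CPM (log2 fold change -1.38 ± 0.15 SE, adjusted p = 1.84e-05), and was not called in cardiomyocyte-like nuclei, its highest class (adjusted p = 0.210). Adamts14 was tested in fibroblast-like and smooth muscle-like nuclei and called in neither, with an adjusted p of 0.344 in the second.

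Adamts6 and Adamts10 are close relatives linked to fibrillin fibres, and they parted in fibroblast-like nuclei. Adamts6 was at 156, 154 and 149 CPM in NS-Sham, against 433, 515 and 656 for NS-I/R and 538, 595 and 517 for Enpa-I/R. Its sham libraries lay together, below every I/R library (log2 fold change 1.80 ± 0.14 SE, adjusted p = 3.10e-06). Adamts10 was at 528, 504 and 533 CPM in NS-Sham, against 161, 136 and 218 for NS-I/R and 252, 258 and 254 for Enpa-I/R, with all sham libraries on top (log2 fold change -1.60 ± 0.15 SE, adjusted p = 7.55e-06). In cardiomyocyte-like nuclei Adamts6 fell, from 128, 129.7 and 129 to 71.5, 74.9 and 93.1 CPM (log2 fold change -0.69 ± 0.13 SE, adjusted p = 0.00189). Adamts10 was lower in 6 of 8 classes. With 1 library left out at a time, the endocardial-like call was kept in 2 of 9 fits (adjusted p 0.00677 to 0.147) and the pericyte-like call in 5 of 9 (adjusted p 0.00631 to 0.135).

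Adamts17 and Adamts19, a further related pair, fell in their highest classes among the 9 compared. Adamts17 was at 69.8, 62.4 and 82.9 CPM in NS-Sham, against 26.4, 23.2 and 18.7 for NS-I/R and 33.9, 35.1 and 41.8 for Enpa-I/R in pericyte-like nuclei, with sham above all I/R libraries (log2 fold change -1.63 ± 0.24 SE, adjusted p = 1.20e-04). Adamts19 was at 67.0, 65.5 and 74.6 CPM in NS-Sham, against 17.8, 31.4 and 53.7 for NS-I/R and 76.8, 70.0 and 84.5 for Enpa-I/R in fibroblast-like nuclei. Its NS-I/R libraries were spread but all below sham (log2 fold change -0.99 ± 0.28 SE, adjusted p = 0.0129). Adamts7, which cleaves cartilage oligomeric matrix protein (COMP), fell in cardiomyocyte-like nuclei, at 28.9, 49.1 and 49.6 CPM in NS-Sham, against 2.04, 3.84 and 11.9 for NS-I/R and 8.31, 18.1 and 11.8 for Enpa-I/R. All I/R libraries were below the lowest sham library (log2 fold change -2.85 ± 0.53 SE, adjusted p = 0.00175). Adamts12, its relative, was lower in fibroblast-like nuclei (log2 fold change -0.42 (adjusted p = 0.0129)) and higher in endothelial-like (1.02 (adjusted p = 0.00111)) and endocardial-like nuclei (1.37 (adjusted p = 0.0257)). The fibroblast-like call was lost without NS-Sham replicate 3 (adjusted p = 0.0588). The endocardial-like call was kept in 4 of 9 fits that left out 1 library (adjusted p 0.00329 to 0.110). In endothelial-like nuclei of NS-I/R Adamts12 had 0.110 UMIs per nucleus, against 0.1 in B cell-like nuclei. It was not called in pericyte-like nuclei, its highest class.

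ADAMTS-like proteins, which bind matrix without cutting it, also differed by class. Adamtsl1 was at 1099, 1758 and 1163 CPM in NS-Sham, against 539.7, 499.9 and 738 for NS-I/R and 1864, 1252 and 1478 for Enpa-I/R in lymphatic endothelial-like nuclei. The NS-I/R libraries were the lowest 3 (log2 fold change -1.18 ± 0.23 SE, adjusted p = 0.00133). Adamtsl3 was at 524, 489 and 518 CPM in NS-Sham, against 191, 183 and 248 for NS-I/R and 292, 329 and 335 for Enpa-I/R in fibroblast-like nuclei, with no overlap between any of the groups (log2 fold change -1.30 ± 0.13 SE, adjusted p = 1.15e-05). Adamtsl4, linked to fibrillin in the eye, rose in macrophage-like nuclei, at 14.9, 11.9 and 26.5 CPM in NS-Sham, against 158, 176 and 114 for NS-I/R and 83.1, 58.9 and 87.0 for Enpa-I/R (log2 fold change 3.21 ± 0.30 SE, adjusted p = 1.11e-06). It fell in fibroblast-like (log2 fold change -1.02 (adjusted p = 2.00e-04)) and cardiomyocyte-like nuclei (-1.16 (adjusted p = 0.00175)). Adamtsl2, a binder of the latent TGF-beta protein LTBP1, rose in pericyte-like nuclei, from 3.81, 1.99 and 5.53 to 81.5, 37.2 and 25.9 CPM (log2 fold change 3.83 ± 0.58 SE, adjusted p = 1.76e-04), and was not called in fibroblast-like nuclei (adjusted p = 0.413). Adamtsl5 was highest in cardiomyocyte-like nuclei and not called there (adjusted p = 0.364).

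**Figure D3:**
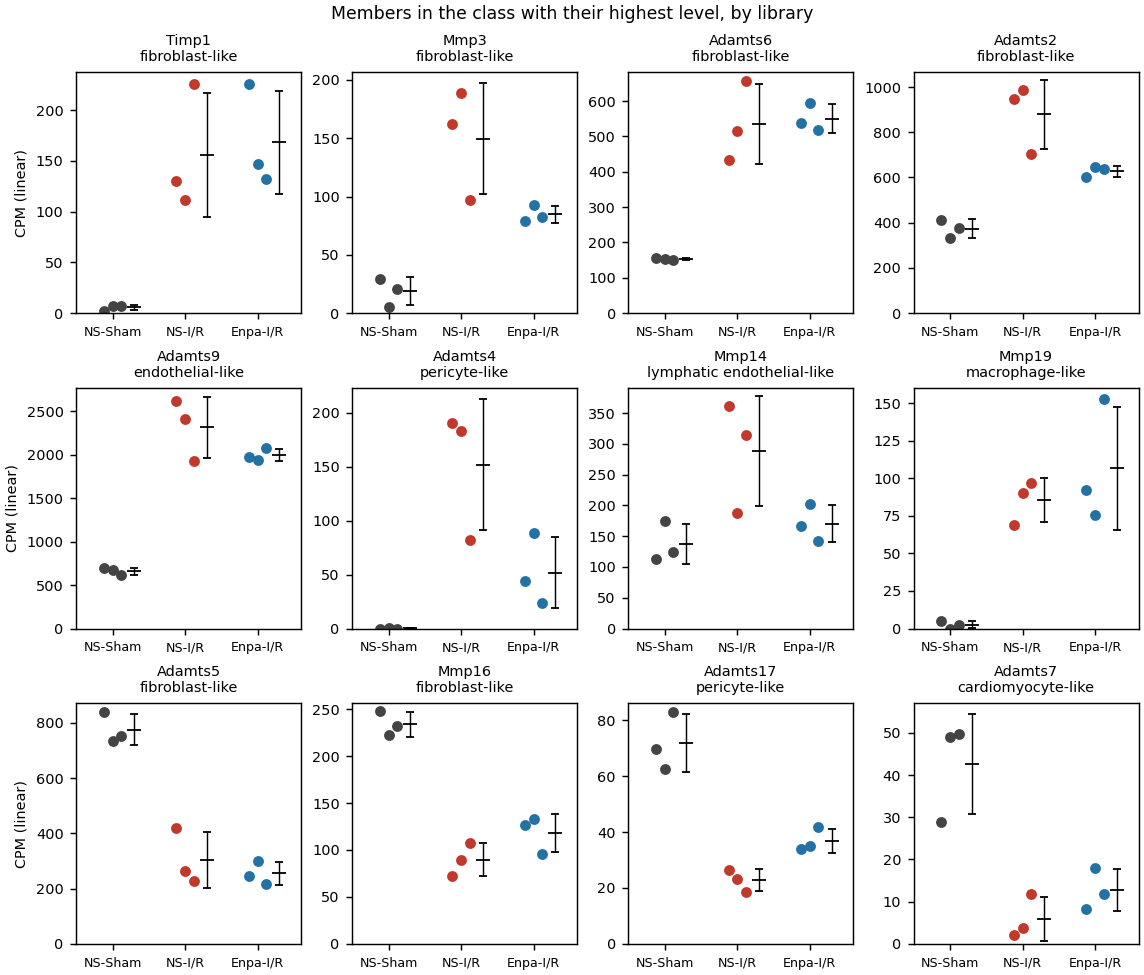
CPM per library (dots, linear axis from 0) by group for 12 members in the class where each is highest, with the mean and SD of 3 libraries as a bar. Timp1, Adamts9, Adamts4 and Mmp19 have all sham dots below the others, and Adamts5, Mmp16, Adamts17 and Adamts7 have all sham dots above.

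Within fibroblast-like nuclei of NS-I/R the members were unevenly spread over 4 clusters, each with libraries of all 3 replicates. Cluster 12 held 44.6% of these nuclei, and Timp1 there was at 268 ± 98.2 CPM (mean ± SD, n = 3), against 22.2 ± 17.4 in cluster 10, 53.5 ± 10.7 in cluster 11 and 86.9 ± 38.7 in cluster 14. Adamts6 followed the same order, with 873 ± 233 CPM in cluster 12 and 188 ± 94.1 in cluster 10, and Adamts2 was at 1189.8 ± 185 and 596 ± 122. Adamts15 was at 10.4 ± 5.96 CPM in cluster 12 and 265 ± 155 in cluster 10, Timp2 at 38.7 ± 5.99 and 149 ± 74.6, and Mmp2 at 83.7 ± 24.9 and 285 ± 41.1. Mmp3 did not separate the clusters, at 149.8 ± 85.5 in cluster 12 and 209.7 ± 50.1 in cluster 10. In macrophage-like nuclei of NS-I/R, cluster 22, with 50.3% of them, had Mmp19 at 137 ± 10.3 CPM and Timp2 at 18.3 ± 12.9, against 29.2 ± 11.6 and 174 ± 19.2 in cluster 16. The clusters were formed from the other genes of these nuclei, so these levels are descriptions with no test.

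**Figure D4:**
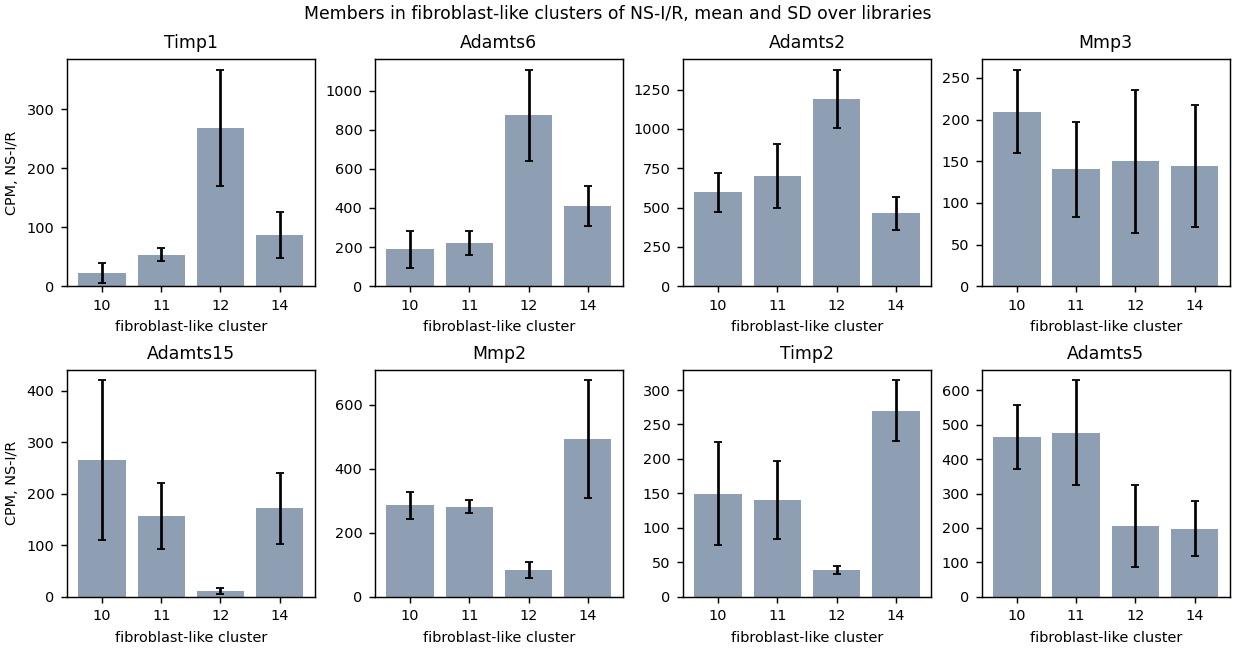
Mean CPM of 8 members in the 4 fibroblast-like clusters of NS-I/R (bars, linear axis from 0; error bars are the SD over 3 libraries). Timp1, Adamts6 and Adamts2 are highest in cluster 12, while Mmp2, Timp2 and Adamts15 are lowest there.

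Other genes of matrix proteolysis were read in fibroblast-like nuclei, where 46.7% of all genes were called. Of the plasminogen system, which makes plasmin, an activator of pro-MMPs, the receptor Plaur rose by 3.74 on the log2 scale, and Plat and Serpine2 by 0.53 and 0.60. The activator Plau had 0.55 and was not called (adjusted p = 0.420). Of the membrane-bound ADAM proteases 5 of 10 were called, with Adam12 (4.76) and Adam8 (2.55) higher and Adam33 (-2.41), Adam22 (-1.10) and Adam17 (-0.42) lower. Of cathepsins and cystatins 4 of 11 were called, with Ctsc, Ctss and Ctsl higher and the inhibitor Cst3 lower (-0.60). Of activators and further inhibitors 5 of 10 were called: the proprotein convertase Furin (1.65), Pcsk5 (0.57) and the protease inhibitor Tfpi2 (3.85) rose, and the convertase Pcsk6 (-2.55) and the MMP inhibitor Reck (-0.49) fell. Of matrix substrates 12 of 16 were called, 6 in each direction. Tnc (tenascin C, 8.17), Thbs1 (2.00), Ltbp2 (1.97), the versican gene Vcan (1.37), Fn1 (1.11) and Postn (0.98) rose. Lum (-1.25), Ltbp1 (-1.13), Eln (-1.11), the ADAMTS7 substrate Comp (-1.05), Fbn2 (-0.64) and Dcn (-0.59) fell. The 7 fibroblast markers, summed, were at 9884 to 10837 CPM in NS-Sham, against 4673 to 5446 for NS-I/R and 6440.0 to 7307 for Enpa-I/R, and Dcn is among them; their part in these changes was not tested.

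Some calls outside a member's main class were made at levels that free RNA can reach. B cell-like nuclei of NS-I/R, 90 in number with a median of 1525 UMIs, served as the class that should lack these genes, except Adamts6, which had 93 UMIs there in NS-Sham and for which the comparison is void. Of members called higher, 4 of 11 in cardiomyocyte-like nuclei (Mmp3, Mmp9, Mmp14 and Mmp19) had no more UMIs per nucleus than B cell-like nuclei. The same held for 5 of 11 in macrophage-like nuclei (Adamts2, Adamts4, Adamts9, Mmp9 and Timp3), 2 of 12 in endothelial-like nuclei (Mmp3 and Mmp9) and 1 of 10 in fibroblast-like nuclei (Mmp9). It held for none of those in pericyte-like (7), endocardial-like (5), smooth muscle-like (4) and lymphatic endothelial-like nuclei (4). These B cell-like levels rest on few UMIs, 2 for Mmp3 and Mmp19, 4 for Mmp14, 8 for Adamts4, 14 for Mmp9 and Adamts2, 40 for Timp3 and 49 for Adamts9. The calls at or below them are not read as expression in those classes, and the part of free RNA was not tested. Within 2-fold of the B cell-like level lay 8 of 11 in macrophage-like, 7 of 12 in endothelial-like, 4 of 11 in cardiomyocyte-like and 3 of 10 in fibroblast-like nuclei (Adamts4, Adamts9 and Mmp9).

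Setting Enpa-I/R against NS-I/R asks what the TLR7 antagonist changed in injured hearts. It shares the NS-I/R libraries with the comparison above, so the 2 sets of values are given side by side and no likeness between them is computed. In fibroblast-like nuclei Adamts1, Adamts2, Adamts4 and Adamts15 were lower with enpatoran, and Adamts10, Adamts19 and Adamtsl3 were higher. Adamts1 was also lower in pericyte-like, cardiomyocyte-like, macrophage-like and neutrophil-like nuclei, of which the macrophage-like call was made near the level of B cell-like nuclei. Timp1, Mmp3, Mmp19 and Adamts6, which rose after I/R in their main classes, were not called there in this comparison. Of 39 members tested in 8 classes, 17 were called in at least 1, 11 only lower and 6 only higher, beside 27.6% of all genes tested (14.9% only lower, 12.2% only higher).

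Fibroblast-like nuclei had 7 of 36 members called, 3 higher and 4 lower, beside 9.54% of all genes tested (3.7% higher, 5.84% lower), and 20 had an unadjusted p under 0.05. Endothelial-like nuclei had 6 of 29 called, 2 higher, beside 7.66% of all genes tested (3.43% higher, 4.23% lower). Pericyte-like nuclei had 3 of 22, all lower, beside 6.01% of all genes tested (2.96% higher, 3.05% lower), and macrophage-like nuclei 4 of 18, all lower, beside 6.45% of all genes tested (2.92% higher, 3.53% lower). Cardiomyocyte-like nuclei had 3 of 33, 1 higher, beside 18.7% of all genes tested (7.5% higher, 11.2% lower). Lymphatic endothelial-like nuclei had 1 of 13, which was higher, beside 1.04% of all genes tested (0.71% higher, 0.328% lower). In endocardial-like nuclei edgeR called 0 of 16, beside 0.297% of all genes tested (0.129% higher, 0.168% lower), with 7 at an unadjusted p under 0.05, and DESeq2 called 2. In smooth muscle-like nuclei edgeR called 0 of 19, beside 0% of all genes tested (0% higher, 0% lower), with 2 at an unadjusted p under 0.05, and DESeq2 called 1. Over all nuclei 11 of 43 were called, 3 higher, beside 16.5% of all genes tested (7.75% higher, 8.74% lower).

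These counts rest on single libraries. Without NS-I/R replicate 3 the fibroblast-like count went from 7 to 21, and without NS-I/R replicate 1 or 2 or any 1 Enpa-I/R library edgeR called 0 (13 to 17 at an unadjusted p under 0.05). The endothelial-like count went from 6 to 15 without NS-I/R replicate 3, and to 0 without Enpa-I/R replicate 1 or 3 (10 and 13 at an unadjusted p under 0.05).

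Adamts1 was called lower in more classes than any other member. In fibroblast-like nuclei it was at 47.3, 32.4 and 31.4 CPM in NS-Sham, against 161, 117 and 62.6 for NS-I/R and 38.0, 39.5 and 48.6 for Enpa-I/R. Enpa-I/R libraries were all below the lowest NS-I/R library and within or near the sham range (log2 fold change -1.43 ± 0.28 SE, adjusted p = 0.0171; 4.94e-06 to 0.0762 with 1 library left out). In pericyte-like nuclei it was at 25.4, 24.5 and 23.9 CPM in NS-Sham, against 294, 231 and 155 for NS-I/R and 72.9, 143 and 91.8 for Enpa-I/R, again with no overlap between the I/R groups (log2 fold change -1.16 ± 0.24 SE, adjusted p = 0.0148; 4.64e-05 to 0.0854 with 1 left out). In cardiomyocyte-like nuclei, with the levels given above, the log2 fold change was -1.15 (adjusted p = 0.0137). In macrophage-like nuclei Adamts1 was at 33.6, 33.2 and 31.3 CPM for NS-I/R and 20.1, 10.9 and 10.2 for Enpa-I/R (log2 fold change -1.23 ± 0.35 SE, adjusted p = 0.0472; 0.0221 to 0.195 with 1 left out). Adamts1 there had 0.0813 UMIs per nucleus in NS-I/R, against 0.0778 (7 UMIs) in B cell-like nuclei, and the part of free RNA was not tested. It was not called in endothelial-like nuclei (-0.46 (adjusted p = 0.0742)) or smooth muscle-like nuclei (-0.81 (adjusted p = 0.286)). Whether the classes differ was not tested.

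Adamts4 was lower in fibroblast-like nuclei (log2 fold change -2.38 ± 0.48 SE, adjusted p = 0.0174), where the lowest NS-I/R library lay just above the highest with enpatoran. The adjusted p was 4.31e-07 to 0.0771 with 1 library left out. Adamts4 in NS-I/R was within 2-fold of its B cell-like level of 0.0889 UMIs per nucleus in fibroblast-like (0.160) and endothelial-like nuclei (0.137). The part of free RNA was not tested. In pericyte-like nuclei it was lower too (log2 fold change -1.58 ± 0.36 SE, adjusted p = 0.0214), but Enpa-I/R replicate 2 lay above NS-I/R replicate 3. That call was kept in 5 of 9 fits (8.18e-05 to 0.104 with 1 left out) and lost with DESeq2's Wald test (adjusted p = 0.156). In endothelial-like nuclei it was at 66.0, 60.1 and 75.9 CPM for NS-I/R and 36.9, 36.7 and 19.8 for Enpa-I/R (log2 fold change -1.10 (adjusted p = 0.0307); kept in 4 of 9 fits, 0.00930 to 0.106 with 1 left out). Adamts15 in fibroblast-like nuclei had all Enpa-I/R libraries below sham and NS-I/R (log2 fold change -1.90 ± 0.33 SE, adjusted p = 0.0130; 9.12e-08 to 0.0679 with 1 left out). Adamts2 was lower in fibroblast-like nuclei (log2 fold change -0.48 ± 0.13 SE, adjusted p = 0.0436; 1.99e-04 to 0.170 with 1 left out), and every Enpa-I/R library stayed above sham. In cardiomyocyte-like nuclei Adamts2 was at 15.7, 13.5 and 14.8 CPM in NS-Sham, against 133, 84.2 and 50.8 for NS-I/R and 34.9, 35.6 and 34.8 for Enpa-I/R (log2 fold change -1.35 ± 0.27 SE, adjusted p = 0.0155; kept in 5 of 9 fits, 3.51e-05 to 0.0615 with 1 left out).

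Several members were higher with enpatoran. Adamtsl3 (log2 fold change 0.62 ± 0.13 SE, adjusted p = 0.0178) and Adamts10 (log2 fold change 0.57 ± 0.15 SE, adjusted p = 0.0336) in fibroblast-like nuclei had all Enpa-I/R libraries between those of sham and NS-I/R. Adamts19 (log2 fold change 1.15 ± 0.28 SE, adjusted p = 0.0284) lay within or above the sham range. Over fits with 1 library left out, the adjusted p was 2.64e-05 to 0.0808 for Adamtsl3, 2.75e-05 to 0.127 for Adamts10 and 1.40e-05 to 0.109 for Adamts19. In endothelial-like nuclei Mmp15 was higher (log2 fold change 1.17 ± 0.28 SE, adjusted p = 0.0293; 3.63e-05 to 0.126 with 1 left out) and below all sham libraries, and Adamts10 was at 109, 129.9 and 119.8 CPM in NS-Sham, against 57.1, 43.4 and 97.5 for NS-I/R and 113, 122 and 116 for Enpa-I/R (log2 fold change 0.83 ± 0.22 SE, adjusted p = 0.0371; kept in 2 of 9 fits, 1.99e-05 to 0.139 with 1 left out). In lymphatic endothelial-like nuclei every Enpa-I/R library of Adamtsl1 was above every NS-I/R library (log2 fold change 1.37 ± 0.23 SE, adjusted p = 0.00335), and this call held in all 9 fits that left out 1 library (adjusted p 6.79e-05 to 0.0318). In cardiomyocyte-like nuclei Adamts6 was at 128, 129.7 and 129 CPM in NS-Sham, against 71.5, 74.9 and 93.1 for NS-I/R and 120.0, 117 and 138 for Enpa-I/R, with the I/R groups apart (log2 fold change 0.65 ± 0.13 SE, adjusted p = 0.0153; 2.06e-04 to 0.0663 with 1 left out).

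**Figure D5:**
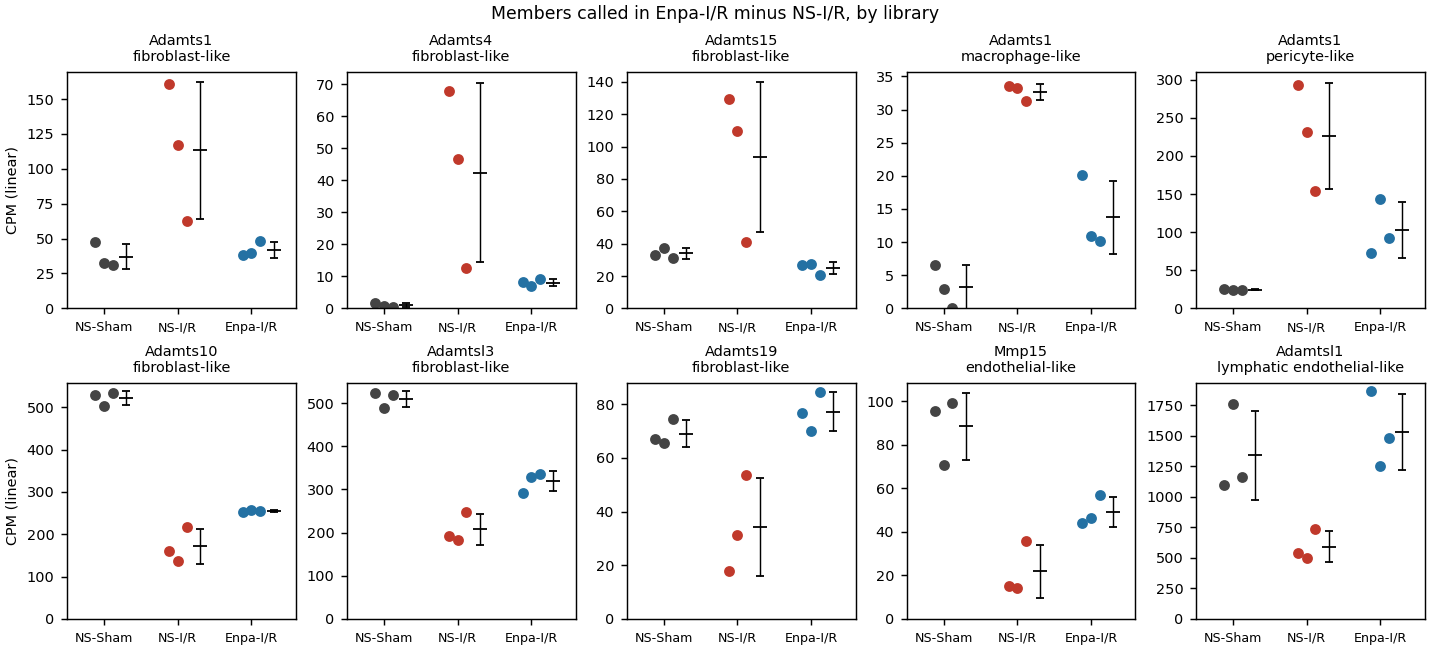
CPM per library (dots, linear axis from 0) by group for 10 pairs of a member and a class called between Enpa-I/R and NS-I/R, with the mean and SD of 3 libraries as a bar. In the top row Enpa-I/R lies below NS-I/R, and in the bottom row above it.

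Other endothelial-like calls were lower with enpatoran. Mmp14 was at 7.74, 6.04 and 7.69 CPM in NS-Sham, against 37.1, 40.9 and 76.8 for NS-I/R and 28.5, 30.2 and 19.8 for Enpa-I/R (log2 fold change -0.97 ± 0.26 SE, adjusted p = 0.0408; 0.0417 to 0.134 with 1 left out). Adamts12, at a level in NS-I/R near that of B cell-like nuclei as given above, was also called. It was at 23.2, 27.4 and 29.1 CPM in NS-Sham, against 67.3, 45.8 and 49.4 for NS-I/R and 27.2, 35.8 and 37.3 for Enpa-I/R, with Enpa-I/R below all NS-I/R libraries (log2 fold change -0.71 ± 0.19 SE, adjusted p = 0.0376; 0.00730 to 0.165 with 1 left out). Mmp9 in these nuclei went from 8.10, 12.3 and 17.5 to 2.91, 4.18 and 2.64 CPM (log2 fold change -1.96 (adjusted p = 0.0124)), beside neutrophil markers at 98.9 to 251 and 45.3 to 66.2 CPM; their part in it was not tested. In pericyte-like nuclei Adamtsl2 was at 3.81, 1.99 and 5.53 CPM in NS-Sham, against 81.5, 37.2 and 25.9 for NS-I/R and 19.5, 5.61 and 8.14 for Enpa-I/R, with no overlap of the I/R groups (log2 fold change -2.04 ± 0.46 SE, adjusted p = 0.0208; 3.18e-04 to 0.136 with 1 left out).

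In macrophage-like nuclei Adamtsl4 was lower, with no overlap of the I/R groups (log2 fold change -0.97 ± 0.22 SE, adjusted p = 0.0162; 5.01e-04 to 0.102 with 1 left out). Mmp8 went from 15.5, 32.3 and 38.9 to 7.0, 9.31 and 6.78 CPM (log2 fold change -1.88 ± 0.41 SE, adjusted p = 0.0169; 0.0123 to 0.0823 with 1 left out). Neutrophil markers moved with it, from 407 to 1007 to 233 to 274 CPM, and their part was not tested. Adamts9 in macrophage-like nuclei was also called lower (log2 fold change -1.14 (adjusted p = 0.0278); 0.00914 to 0.164 with 1 left out), at a level below that of B cell-like nuclei in NS-I/R, as given above. In endothelial-like nuclei Adamts9 was not called (-0.21 (adjusted p = 0.280)).

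Neutrophil-like nuclei had 2 of 18 members called, both lower, beside 1.51% of all genes tested (0.896% higher, 0.618% lower). Adamts9 was at 1446, 1045 and 1074 CPM for NS-I/R and 452, 674 and 408 for Enpa-I/R (log2 fold change -1.18 ± 0.27 SE, adjusted p = 0.0421). Adamts1 was at 186, 113 and 119.9 and 55.6, 33.9 and 51.0 (log2 fold change -1.64 ± 0.38 SE, adjusted p = 0.0482). Endothelial markers in the same nuclei were at 2253 to 4255 CPM for NS-I/R and 2022 to 2681 for Enpa-I/R, against 7359.7 to 8257 in endothelial-like nuclei, and their part in both calls was not tested. The proteases of the class itself did not pass the test. Mmp9 was at 356, 348 and 361 CPM for NS-I/R and 577, 737 and 680.4 for Enpa-I/R, with all Enpa-I/R libraries higher (0.91 (adjusted p = 0.0621)), while neutrophil markers were at 5111 to 7231 and 10647 to 13135 CPM. Mmp8 was at 214, 231 and 122 and 83.4, 119 and 170.1 CPM, overlapping (-0.68 (adjusted p = 0.335)), and Mmp25 at 62.1, 38.9 and 32.9 and 76.5, 63.6 and 17.0 (0.44 (adjusted p = 0.650)). Both calls were lost without NS-I/R replicate 1 or 2 or any 1 Enpa-I/R library, and 7 members were called without NS-I/R replicate 3.

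Of the inhibitors none was called in any class in this comparison, beside 27.6% of all genes called in at least 1 of the 8 classes. At an unadjusted edgeR p under 0.05 were 2 of 4 Timp genes tested in fibroblast-like nuclei. The same held for 1 of 3 in endocardial-like and 1 of 3 in macrophage-like nuclei. Timp1 in fibroblast-like nuclei had 0.11 (adjusted p = 0.810), Timp2 in lymphatic endothelial-like nuclei 0.32 (adjusted p = 0.559), Timp3 in the same nuclei -0.51 (adjusted p = 0.369) and Timp4 in endothelial-like nuclei -0.07 (adjusted p = 0.792). In fibroblast-like nuclei Plaur was lower (-1.23), and the other lists gave 1 of 10 ADAM genes lower (Adam8 -1.64) and 0 of 11 cathepsins and cystatins by edgeR (1 at an unadjusted p under 0.05). Of activators and further inhibitors 2 of 10 were called, Furin lower (-0.90) and Pcsk6 higher (0.97). Of matrix substrates 3 of 16 were called, Tnc lower (-1.25) and Lum (0.86) and Ltbp1 (0.37) higher, where 9.54% of all genes were called. Vcan, a substrate of Adamts1, Adamts4, Adamts9 and Adamts15, had -0.24 (adjusted p = 0.325).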

How the data were processed

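The authors deposited raw UMI counts per gene and barcode, made with Cell Ranger 8.0.0 per the file headers; the submitters' processing notes name Cell Ranger 6.1.1, Seurat, GRCm39 and GRCh38, with no roles. Whether intron reads were counted is not given in the sources used here. Nuclei with at least 500 genes and at most 5% mitochondrial UMIs were kept, and the highest Scrublet scores, 0.8% of barcodes per 1000, were removed as doublets (133 to 538 per library). Libraries shared 5 to 20 barcodes in pairs. Clustering (scanpy 1.11.5, 2000 variable genes, 30 components, 15 neighbours, Leiden resolution 1) left out the members, and the cut-offs for naming clusters were chosen with the data in view; other seeds kept the class of 99.4% to 99.8% of nuclei. UMI counts summed per library and class went into edgeR 4.0.16's quasi-likelihood test (TMM scaling, filterByExpr, 9 libraries in 1 fit, neutrophil-like nuclei with 6, Benjamini-Hochberg, 0.05). Summed UMIs per library ran from 141886 (lymphatic endothelial-like, the lowest of the classes with 9 libraries) to 16835100 (cardiomyocyte-like). The members, lists and comparisons were chosen with earlier results of these data known. Per-library values are given for members called in the class where they are highest, averaged over groups, with at least 5 CPM in 1 group; other calls are given by value or count. Intervals are exact binomial at 95% and floors are 3 counts over a group, for counting error only. edgeR was tested on simulated data (fibroblast-like, 13359 genes, 200 given a log2 difference of 1): 44% were called and 8 unchanged genes. Alternatives were DESeq2 1.42.0 (size factors, Wald test), no filter, 6 libraries, a replicate block, each library left out, and other limits, doublets and clustering. Gene positions are GRCm38, which holds 99.8% of the gene IDs. A gene of the plasminogen list is not reported here, so no count is given for that list.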

Additional observations from a re-analysis of the deposited data

Results flagged for a closer look

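These 5 members were called in opposite directions in different classes after I/R, and the differences of their log2 fold changes come from edgeR fits with an interaction of class and group. The pairs of classes were picked because the same libraries had called them in opposite directions, so these differences are descriptions, and no independent test of them was made. Adamts6 was higher in fibroblast-like and lower in cardiomyocyte-like nuclei, and the log2 fold changes differed by 2.58 ± 0.15 SE. Adamts5 was higher in lymphatic endothelial-like and lower in fibroblast-like nuclei, with a difference of 2.98 ± 0.33 SE. Adamtsl4 was higher in macrophage-like and lower in cardiomyocyte-like nuclei, with a difference of 4.44 ± 0.35 SE. Adamts12 was higher in endocardial-like and lower in fibroblast-like nuclei, by 1.79 ± 0.36 SE, and its endocardial-like rise was kept in 4 of 9 fits that left out 1 library (adjusted p 0.00329 to 0.110). Adamtsl3 was higher in cardiomyocyte-like and lower in fibroblast-like nuclei, by 2.38 ± 0.38 SE, but its cardiomyocyte-like rise, at 6.32, 3.76 and 2.56 CPM in NS-I/R, turned to a log2 fold change of -0.02 with doublets kept and held in 2 of 9 fits that left out 1 library (adjusted p 0.00765 to 0.169). Both classes of a pair come from the same libraries, and these fits hold a term for each library.

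Signals also appeared in classes too small to test, above the sham level. Timp1 in epicardial or mesothelial-like nuclei had 1.42 UMIs per nucleus in NS-I/R (18, 30 and 23 UMIs in replicates 1 to 3, in 50 nuclei) and 0.0375 in NS-Sham. Timp2 there had 2.58 in NS-I/R, with 55 of 129 UMIs in 1 nucleus, and 0.938 in NS-Sham. Adamts6 had 5.89 UMIs per nucleus in adipocyte-like nuclei of NS-I/R, where 201 of 206 UMIs came from replicate 2, which held 30 of the 35 nuclei. Mmp25 had 0.192 in the unnamed cluster of NS-I/R (63, 21 and 1 UMIs, in 443 nuclei); that cluster, led by heat-shock genes, held 1 nucleus in NS-Sham.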

How the results depend on the processing

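In NS-I/R minus NS-Sham, the number of members called stayed within 1.5 times its value under every alternative run in fibroblast-like (22 to 27, against 24), endothelial-like (13 to 17, against 15), cardiomyocyte-like (15 to 22, against 18), macrophage-like (10 to 16, against 13) and pericyte-like nuclei (9 to 15, against 11) and over all nuclei (24 to 30, against 28). Between Enpa-I/R and NS-I/R the counts moved. With 1 library left out they ran from 0 to 21 in fibroblast-like (against 7), 0 to 15 in endothelial-like (against 6), 0 to 10 in cardiomyocyte-like (against 3), 0 to 6 in macrophage-like (against 4), 0 to 10 in pericyte-like (against 3) and 0 to 7 in neutrophil-like nuclei (against 2), and from 2 to 23 over all nuclei (against 11). Smooth muscle-like and lymphatic endothelial-like nuclei together, over both contrasts, gave 8 to 22 (against 11). Each of these highest counts came without NS-I/R replicate 3. Where a count was 0, 4 to 17 members had an unadjusted p under 0.05. Without the low-count filter the counts were 15 for fibroblast-like, 13 for endothelial-like and 8 for cardiomyocyte-like nuclei and 18 in the smooth muscle-like and lymphatic endothelial-like classes. DESeq2's Wald test gave 11 in fibroblast-like and 6 in cardiomyocyte-like nuclei. Fits with the 6 libraries of the contrast gave 0 in fibroblast-like and pericyte-like nuclei, 2 in endothelial-like nuclei and 4 over all nuclei. A minimum of 1000 genes gave 2 each in macrophage-like and endothelial-like nuclei, members among the clustering genes 2 in macrophage-like nuclei, and a mitochondrial limit of 20% or doublets kept 6 each in cardiomyocyte-like nuclei. Causes were not tested.

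Of single calls, DESeq2 size factors kept 160 of 160. DESeq2's Wald test lost 13 calls, the fits with 6 libraries 35, no filter 4, a mitochondrial limit of 20% 10, 1000 genes 15, doublets kept 3, Leiden resolution 2 1 and members in clustering 5, and naming without the rule on leading genes 1. Leaving out 1 library lost 275 of 1452. Values that changed sign were Adamtsl3 in cardiomyocyte-like nuclei after I/R (-0.023 with doublets kept) and 4 differences of Enpa-I/R from NS-I/R that were not called, over 7 fits: Adamts6 in fibroblast-like nuclei (negative without NS-I/R replicate 1 or Enpa-I/R replicate 2, -0.090 to 0.223 with 1 library left out), Adamts5 there (positive without NS-I/R replicate 1, -0.405 to 0.0619), Timp1 there (negative without replicate 1 of Enpa-I/R and without replicate 1 or 2 of NS-I/R, -0.16 to 0.495) and Mmp19 in macrophage-like nuclei (negative without Enpa-I/R replicate 3, -0.024 to 0.507). Thinning lowered shares: of 60 shares of nuclei with a UMI, 59 moved by more than 1 SD without it.

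With the replicate number as a block, 148 single calls were kept and 12 were lost. The labels do not tie replicate numbers across groups. Deviations of same-numbered libraries correlated by -0.169 to 0.140. Of 18 comparisons, 5 in fibroblast-like nuclei and 6 over all nuclei were best with their own number. With 3 libraries per group this check cannot exclude a pairing.

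At this depth 6 members passed the count filter in none of the 8 classes. The self-test at a log2 fold change of 1 recovered 44% of changed genes in fibroblast-like nuclei. It changed 200 of 13359 genes, and both I/R groups alike, while 46.7% of genes were called in the data after I/R. Its 44% is therefore not the sensitivity of the calls given here, and it did not cover Enpa-I/R against NS-I/R.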

Other observations

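Classes too small to test held further members at high levels, given as values from summed nuclei with no explanation. Schwann-like nuclei of NS-Sham (66 nuclei) had 107 UMIs of Adamts12 (491 CPM), above its 346 CPM in the highest tested class of that group. Adamts20 and Adamts17 had 37 UMIs each there (169.9 CPM), above 5.44 and 63.4 CPM in their highest tested classes of that group. B cell-like nuclei of NS-Sham had 93 UMIs of Adamts6 (34, 49 and 10 in replicates 1 to 3), or 429.8 CPM, so Adamts6 was not absent from that class. Adamtsl1 in epicardial or mesothelial-like nuclei stood at 1024 CPM in NS-Sham and 575 for NS-I/R. Mmp13, with 105 UMIs in all, had 9, 35 and 16 per library in NS-Sham, against 9, 6 and 8 for NS-I/R and 4, 12 and 6 for Enpa-I/R.

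Several members are neighbours in the GRCm38 annotation. Mmp3, Mmp8, Mmp12, Mmp13 and Mmp27 lie together on chromosome 9, and after I/R Mmp3 rose in fibroblast-like nuclei and Mmp8 in macrophage-like nuclei while Mmp27 and Mmp12 were not called in those classes. Adamts1 and Adamts5 are neighbours on chromosome 16, and in fibroblast-like nuclei the first rose (log2 fold change 1.61 ± 0.29 SE, adjusted p = 8.42e-04) and the second fell (log2 fold change -1.36 ± 0.20 SE, adjusted p = 2.09e-04). Of the 45 members, 16 overlap another annotated gene. For 2 of them, Adamtsl1 with Sh3gl2 and Timp2 with Cep295nl, this is on the same strand. The others overlap on the opposite strand only, as Timp1, Timp3 and Timp4 do with Syn1, Syn3 and Syn2. Without the counting settings it is not known how reads of such pairs were assigned.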
